A study of Homo sapiens with 9 samples.

Results

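The genes described here are those with their highest level under the fusion CIC::DUX4 in HEK293T, a transformed human embryonic kidney line. They were chosen from the measured counts. Levels are in CPM, each gene's count scaled to a library total of 1000000 counts. A gene was taken if its mean with CIC::DUX4 was at least 0.5 CPM, at least 2 times the mean with CIC::NUTM1 and at least 2 times the mean with empty vector, and if the lowest CIC::DUX4 library lay above the highest of the other 6 libraries. Of 62700 genes in the table, 167 met these criteria, and 12 of them were left aside by symbol because they belong to other families (WNT9A, COL10A1, COL12A1, VGF, SPRY3, KCNA4, KRT8, MMP14, SCNN1B, KRT37, SRMS and KRTAP19-1). The remaining 155 genes are the set. Because the contrasts of CIC::DUX4 with both other groups made the choice, levels and ratios in those contrasts are given as a description with no test.

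The 9 libraries of polyA-selected RNA came from 3 groups of 3. The cells received a plasmid with no insert (empty vector), one encoding HA-CIC(ex20)::NUTM1(ex6), called CIC::NUTM1 below, or one encoding HA-CIC::DUX4. All groups were the same 293T line, 300000 cells per condition were reverse transfected with Fugene 6, and RNA was taken about 48 hours later. Replicates were transfected on separate days. The fusions were therefore expressed transiently from plasmids in a kidney-derived line that is not a sarcoma cell, and the transcripts of the fused genes were not analysed here.

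CIC (capicua) is an HMG-box repressor that binds the octamer TGAATGAA and close relatives of it in the control regions of its targets, and signalling through the MAPK pathway lifts that repression. In round cell sarcomas, CIC is joined to the C-terminal part of DUX4 or to most of NUTM1, both of which can recruit the acetyltransferases EP300 and CREBBP. The joined proteins keep the DNA-binding parts of CIC and act as activators. CIC::DUX4 sarcoma is known for high expression of the ETS factors ETV1, ETV4 and ETV5.

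The promoters of the set were read from RefSeq windows on GRCh38.p14 that run from 250 bases before to 50 bases after each transcription start. Of the 155 genes, 86 had at least 1 window, 118 windows in all. A CIC octamer (TGAATGAA, TGAATGGA, TCAATGAA or TCAATGGA, either strand, overlaps allowed) lay in 8 windows, each of a different gene, and matches stood in AP1M2, ASMTL, CYB5R2, DIO2, GREB1L-DT, IGF1, LCTL and SULT1E1. The sequences of 5 of these are shown because the genes hold the letters that CIC binds and were also called higher with CIC::NUTM1 than with empty vector (edgeR adjusted p under 0.05). CYB5R2 met the same conditions and is left out because most of its window is annotated as exon. Of the 5 shown, IGF1 and SULT1E1 passed the filter on low counts only through the CIC::DUX4 libraries, where the choice had made them high. EMP1 is added as an example of a pair of matches to TGANTCA, a loose form of the AP-1 motif. Its matches read TGAGTCA and TGATTCA. ADGRF4 also held a pair, 123 and 43 bases before its start, and is not shown. Each sequence shown runs 5′ to 3′ in the sense of the gene. It holds the part of the window upstream of the RefSeq start that GENCODE 29 does not annotate as exon. Capitals mark the octamer, or TGANTCA in EMP1.
AP1M2, chr19:10587316-10587562, minus strand: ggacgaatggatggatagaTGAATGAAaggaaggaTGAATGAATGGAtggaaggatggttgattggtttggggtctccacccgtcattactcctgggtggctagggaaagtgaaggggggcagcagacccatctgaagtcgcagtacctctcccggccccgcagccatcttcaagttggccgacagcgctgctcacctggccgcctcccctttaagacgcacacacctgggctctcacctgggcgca
ASMTL, chrX:1452930-1453159, minus strand: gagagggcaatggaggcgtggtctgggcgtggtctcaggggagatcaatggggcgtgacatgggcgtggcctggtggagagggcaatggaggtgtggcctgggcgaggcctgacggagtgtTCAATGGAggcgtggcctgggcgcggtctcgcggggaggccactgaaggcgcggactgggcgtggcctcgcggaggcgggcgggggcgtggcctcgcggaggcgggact
DIO2, chr14:80211628-80211754, minus strand: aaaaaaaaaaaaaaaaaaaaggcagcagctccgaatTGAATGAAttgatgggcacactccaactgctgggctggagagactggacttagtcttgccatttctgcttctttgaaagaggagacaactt
IGF1, chr12:102478652-102478800, minus strand: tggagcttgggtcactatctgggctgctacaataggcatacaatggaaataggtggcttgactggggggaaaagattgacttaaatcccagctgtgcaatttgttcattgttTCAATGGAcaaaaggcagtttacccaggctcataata
SULT1E1, chr4:69860153-69860395, minus strand: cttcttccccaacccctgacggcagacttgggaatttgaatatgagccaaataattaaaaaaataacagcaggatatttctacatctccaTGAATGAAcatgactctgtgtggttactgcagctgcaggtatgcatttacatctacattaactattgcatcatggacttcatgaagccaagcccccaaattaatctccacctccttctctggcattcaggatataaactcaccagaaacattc
EMP1, chr12:13196476-13196715, plus strand: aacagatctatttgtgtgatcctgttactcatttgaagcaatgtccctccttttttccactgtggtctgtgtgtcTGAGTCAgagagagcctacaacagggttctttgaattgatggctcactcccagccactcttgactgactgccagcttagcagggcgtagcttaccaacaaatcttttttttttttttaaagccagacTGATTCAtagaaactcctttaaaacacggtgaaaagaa

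The AP1M2, SULT1E1 and EMP1 stretches lie outside annotated genes, while those of ASMTL, DIO2 and IGF1 lie within the introns of their own gene, upstream of a RefSeq start; the DIO2 stretch also lies inside the antisense gene DIO2-AS1. AP1M2 held 3 octamers, which begin 231, 215 and 211 bases before the start, and the last 2 overlap. The match began 129 bases before the start in ASMTL, 214 in DIO2, 138 in IGF1 and 160 in SULT1E1. In EMP1 the TGANTCA matches began 175 and 48 bases before the start.

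By share of windows, the octamer was present in 6.78% of those of the set (8 of 118, 95% Wilson interval 3.48% to 12.8%) and in 2.99% of the 22944 windows of all genes with a read. Within the set it was in 6 of 47 windows (12.8%, 5.99% to 25.2%) of genes that were also called higher with CIC::NUTM1 than with empty vector, and in 2 of 61 (3.28%, 0.904% to 11.2%) of genes that were tested and not called; these intervals overlap. Of the 51 genes of the set called higher, 19 passed the filter on low counts only through the CIC::DUX4 libraries, where the choice had made them high. IGF1 and SULT1E1 were among the 19. The octamer share was not computed without those 19. Over all genes called higher with CIC::NUTM1 the share was 5.39% of 2450 windows. TGANTCA, a loose form of the AP-1 motif of FOS and JUN factors, was in 17 of 118 windows (14.4%, 9.19% to 21.9%), against 6.26% of all windows. The stricter TGACTCA or TGAGTCA, added after the data were seen, was in 10 of 118 (8.47%), against 4.09%. The motif CCGGAAGT, a binding site of PEA3-type ETS factors, was in 2 (1.69%, 0.466% to 5.97%) against 5.47%. The homeodomain motif of full-length DUX4, TAA and AATCA with 3 bases of any kind between them, was in 0 windows (0% to 3.15%), against 0.719%. Both of these intervals cover the share over all windows. All 4 motifs were searched on both strands, and a match describes the letters in these windows only. Windows of 1 gene can overlap, so they are not independent.

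**Figure D1:**
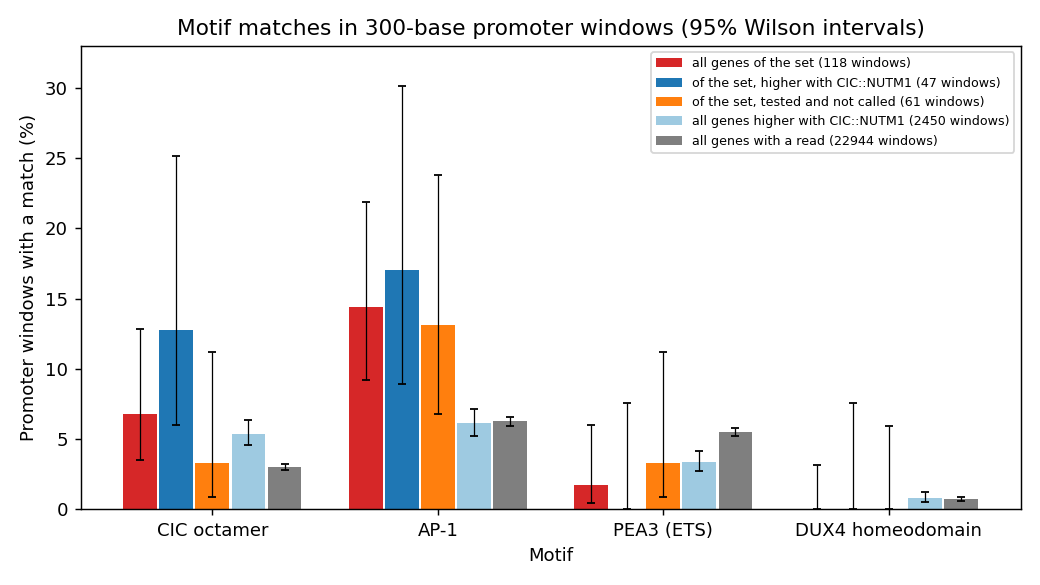
Share of 300-base promoter windows with a match to each of 4 motifs (y axis, percent), for the set, its genes called higher with CIC::NUTM1, its genes tested and not called, all genes called higher with CIC::NUTM1 and all genes with a read; bars are shares and lines are 95% Wilson intervals. The octamer was in 6.78% of the windows of the set against 2.99% of all windows, and AP-1 in its loose form TGANTCA in 14.4% against 6.26%.

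Library totals were 16970771 to 33655445 counts. The 155 genes together took 91.9 to 96.7 CPM in the empty vector libraries, 224.5 to 335.8 CPM with CIC::NUTM1 and 771.5 to 1077 CPM with CIC::DUX4. The highest of these was CIC::DUX4 replicate 1, at 1077 CPM against 771.5 and 797.8 in replicates 2 and 3. That library was the highest of its group for 102 of the 155 genes, where it was the highest for 36.0% of all genes tested. CIC::NUTM1 replicate 2 was the lowest of its group for 79, a count not made over all genes tested. The part of these library differences in the results was not tested. Without CIC::DUX4 replicate 1 the criteria took 194 genes, 135 of the 155 among them. Without CIC::DUX4 replicate 2 they took 251 genes, 144 of the 155 among them, and without replicate 3 they took 284, with 145. These counts reuse the values that chose the set, so they are a description. All 8 markers of the HEK293 line (PAX2, LHX1, NEFL, NEFM, INA, VIM, CDH2 and EYA1) were present, summing to 1329 to 1601 CPM. Markers of leukocytes, endothelium, liver, heart and red cells (PTPRC, CD3E, PECAM1, CDH5, ALB, MYH6, LYZ and HBB) summed to 0.2 to 0.297 CPM with empty vector, 0.908 to 2.10 with CIC::NUTM1 and 0.729 to 2.59 with CIC::DUX4. HBB was at 0 in all 9 libraries; CD3E was at 0 in the empty vector and CIC::NUTM1 groups, and MYH6 in both fusion groups.

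Most of the set was expressed at low levels even with CIC::DUX4. The mean there was 10 CPM or more for 16 genes, 1 to 10 for 84 and under 1 for 55, with a median of 1.32 CPM. The corresponding medians were 0.150 CPM with empty vector and 0.361 with CIC::NUTM1. As a share of the CIC::DUX4 level, the CIC::NUTM1 mean had a median of 30.4% (quartiles 21.5% and 39.2%) and the empty vector mean a median of 8.83%. The ratio of the CIC::DUX4 mean to the higher of the other means was 2 to 3 for 65 genes, 3 to 5 for 57 and 5 or more for 32; the remaining gene, ENSG00000289387, had 0 reads in both other groups. CPM are not corrected for transcript length, so levels are compared between groups for 1 gene and not between genes.

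The other contrast, CIC::NUTM1 against empty vector, was not used to choose the genes, although the criteria cap both means below the CIC::DUX4 level. It asked whether the genes with the highest level under CIC::DUX4 responded to CIC::NUTM1 as well. In the edgeR quasi-likelihood test, 127 of the 155 passed the filter on low counts, which the CIC::DUX4 libraries could satisfy alone, and 51 of the 127 (40.2%) were called higher with CIC::NUTM1 at an adjusted p under 0.05, where 11.5% of all 17576 genes tested were. Of these, 68 tested and 19 called genes passed only through the CIC::DUX4 libraries, where the choice had made them high. With the filter and the fit held to the 2 groups compared, 59 genes of the set were tested and 32 (54.2%) were called higher, where 11.1% of all genes were. None was called lower, where 3.83% of all genes were. At an unadjusted p under 0.05, 0 were lower and 69 higher, and DESeq2 called 55 higher and 0 lower. The shares of all genes at that cut and with DESeq2 are not given here, so these counts are a description. The median log2 fold change of the tested genes of the set was 1.60 (1.06 with genes at 0 in empty vector set to their lower bound), and that of all genes was -0.00086.

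Counted over libraries, every CIC::NUTM1 library lay above every empty vector library for 59 of the 127 (46.5%), against 15.4% of all genes tested. The reverse order was found for 0, against 17.5% of all genes tested. Of the 127, 68 passed the filter only through the CIC::DUX4 libraries. These shares were not counted without those 68, so they are a description. The CIC::NUTM1 mean was above the empty vector mean for 131 of the 155 and below it for 23. This was not counted over all genes. Of the 155, 34 had 0 reads with empty vector and could not lie below it, so the count is a description. Of the 127 tested genes, 76 were not called, and their log2 fold changes ran from -1.28 to 4.66, the widest being genes with few reads. Of the 31 genes whose CIC::DUX4 libraries averaged 100 counts or more, 24 were called higher, 6 were not called and 1 was not tested. The share called higher was 40.2% over the tested genes of the set and 11.5% over all genes tested.

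**Figure D2:**
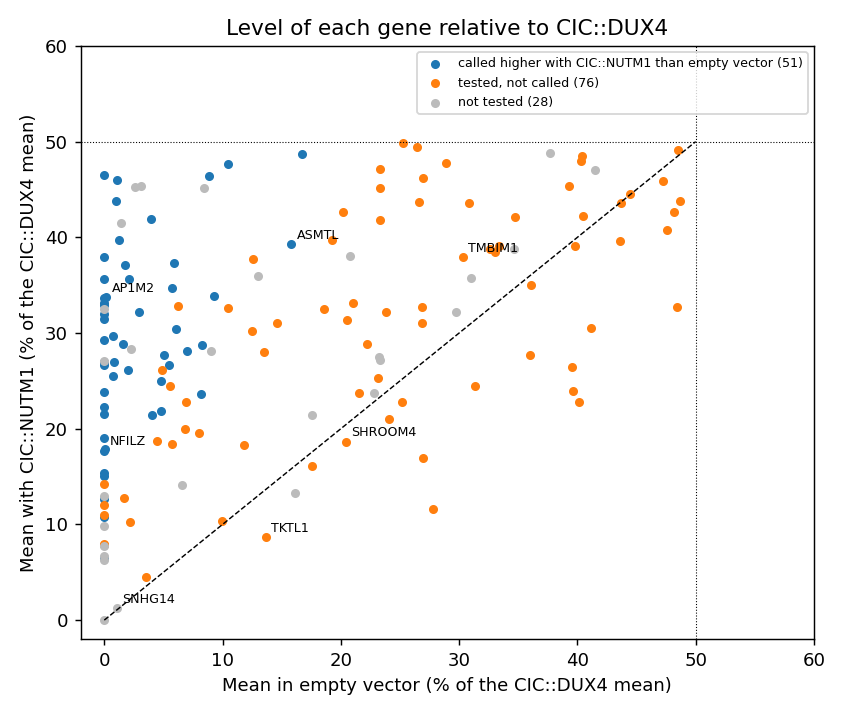
Each point is 1 of the 155 genes, with its empty vector mean (x axis) and its CIC::NUTM1 mean (y axis) as a percent of its CIC::DUX4 mean; the dotted lines mark the 50% limit set by the 2-fold criterion and the dashed line equal levels. Of the points, 131 lie above the dashed line, a count not made over all genes. The 51 called higher with CIC::NUTM1 gather at the left, at a median of 0.817% on the x axis.

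In the role groups below, counts of called genes stand beside 40.2% of the tested genes of the set and 11.5% of all genes tested. With the filter and the fit held to the 2 groups compared, these shares were 54.2% and 11.1%. Called genes of a role that passed the filter on low counts only through the CIC::DUX4 libraries are named as such. Roles held 4 to 45 genes and were not compared with the set, so no count is read as a property of a role. Transcription factors made up 5 of the set, all tested, and 3 were called higher with CIC::NUTM1. NFILZ (ENSG00000268480; chr19:8630671-8638649, plus strand), which encodes a basic leucine zipper protein related to NFIL3 and is listed as a lincRNA in GENCODE 29, had 0 reads in all 3 empty vector libraries. Its level was 8.47, 6.61 and 4.59 CPM with CIC::NUTM1 and 47.7, 31.4 and 32.1 CPM with CIC::DUX4. Every CIC::NUTM1 library lay above empty vector: CIC::NUTM1 was at least 51.4-fold and CIC::DUX4 at least 290-fold higher than empty vector, taking 3 counts per library as the limit of detection there (edgeR adjusted p = 4.73e-08 for CIC::NUTM1). ANKRD1, an ankyrin repeat cofactor induced in muscle stress, read 0.405, 0.475 and 0.321 CPM with empty vector, 3.04, 1.81 and 1.77 with CIC::NUTM1 and 8.95, 8.66 and 6.30 with CIC::DUX4. Its CIC::NUTM1 libraries lay wholly above its empty vector libraries (log2 fold change 2.45 ± 0.34 SE). PAX8, a paired box factor of thyroid and kidney, had 0 reads with empty vector, 0.292, 0.0378 and 0.101 CPM with CIC::NUTM1 and 1.74, 1.07 and 0.766 CPM with CIC::DUX4; it was not called (edgeR adjusted p = 0.0509). CTCFL, the germline relative of CTCF, was at 0.233, 0.278 and 0.717 CPM on average in the 3 groups and was not called.

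Signalling and adaptor proteins numbered 10, all tested, and 6 were called higher with CIC::NUTM1. AP1M2 (ENSG00000129354; chr19:10572671-10587315, minus strand), the epithelial mu subunit of the clathrin adaptor complex AP-1 (unrelated to the factor of the same name), was nearly silent with empty vector at 0.0578, 0 and 0.321 CPM. It reached 29.8, 19.4 and 25.1 CPM with CIC::NUTM1 and 94.2, 61.4 and 64.5 CPM with CIC::DUX4, a ratio of 2.96 between the fusions. Its promoter is the one with 3 octamers shown above. GRIP2, a scaffold that binds glutamate receptors, was at 2.72, 3.00 and 2.37 CPM, then 22.0, 12.7 and 16.9, and 52.9, 44.5 and 40.5. S100A16, a calcium-binding EF-hand protein, was at 0.116, 0.0297 and 0.281 CPM, then 5.31, 4.19 and 4.84, and 23.0, 14.4 and 18.7. For these 3 genes all CIC::NUTM1 libraries lay above the empty vector libraries; their place below CIC::DUX4 was set by the choice. SH3RF2, a RING-type ubiquitin ligase with SH3 domains, had means of 1.28, 4.45 and 15.4 CPM in the same order of groups, and the kinase STK32B means of 0.0896, 4.01 and 9.16. ASB2, a substrate adaptor of a ubiquitin ligase, had means of 0.157, 0.822 and 3.30. The log2 fold changes of the 6 with CIC::NUTM1 ran from 1.79 ± 0.34 (SE) for SH3RF2 to 7.67 ± 0.53 for AP1M2 (edgeR adjusted p = 0.0013 and 1.45e-05). SNAP25, a SNARE of synaptic vesicle release, was at 0.445 and 0.444 CPM with empty vector and CIC::NUTM1 and at 1.02 ± 0.0558 with CIC::DUX4.

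**Figure D3:**
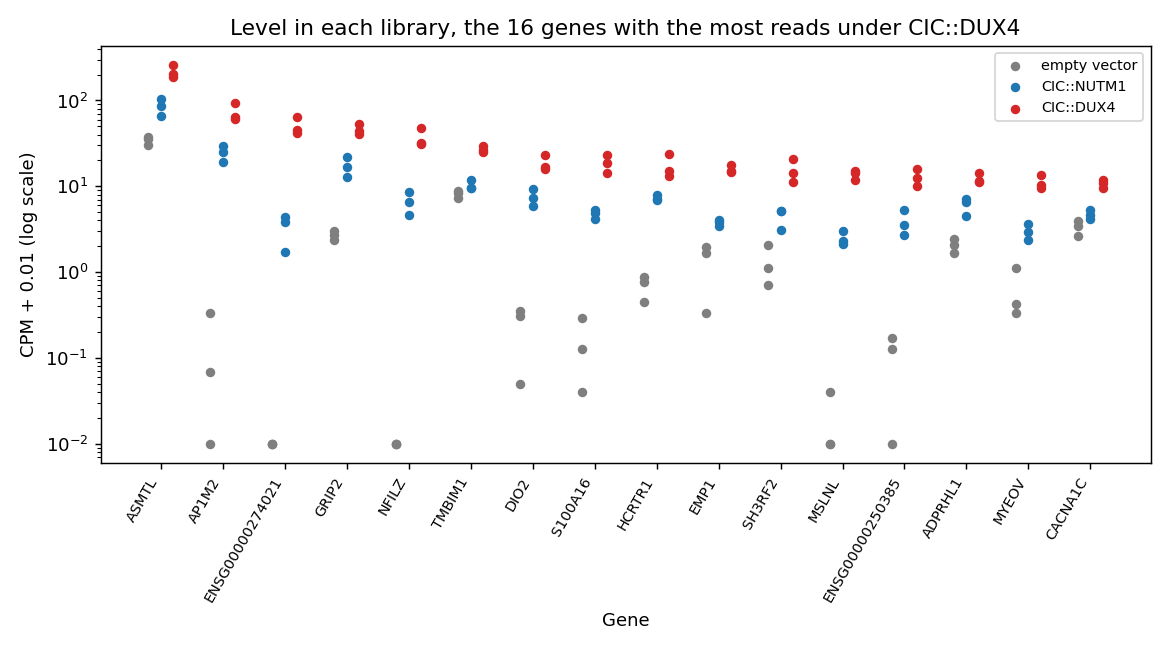
CPM plus 0.01 on a log axis in each of the 9 libraries for the 16 genes of the set with a mean of 10 CPM or more with CIC::DUX4, each point 1 library. The CIC::DUX4 libraries are on top for every gene, as the choice required, and for AP1M2 the CIC::NUTM1 libraries, at 19.4 to 29.8 CPM, stand between them and empty vector at 0 to 0.321.

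Receptors, channels and transporters made up 12 of the set, of which 11 were tested and 4 were called higher. Of the 4, SLC26A9 passed the filter on low counts only through the CIC::DUX4 libraries. HCRTR1, a receptor of the orexin peptides, read 0.752, 0.862 and 0.441 CPM with empty vector, 7.83, 6.92 and 7.12 with CIC::NUTM1 and 23.6, 13.2 and 15.3 with CIC::DUX4, the CIC::NUTM1 libraries all lying above empty vector. CACNG4, an auxiliary subunit that regulates AMPA receptors and calcium channels, had means of 0.371, 1.95 and 4.2 CPM. SLC26A9, an anion transporter, and ADGRF4, an adhesion receptor, had 0 reads with empty vector; ADGRF4 was at 0.584, 0.453 and 0.606 CPM with CIC::NUTM1 and 1.43, 2.09 and 1.71 with CIC::DUX4. CACNA1C, the pore subunit of an L-type calcium channel, was present without a fusion at 3.32 ± 0.669 CPM and was at 4.69 ± 0.575 with CIC::NUTM1 and 10.8 ± 1.25 with CIC::DUX4 (SD, n = 3); the first difference was not called (log2 0.55 ± 0.21 SE, edgeR adjusted p = 0.0823). The sodium-calcium exchanger SLC8A2 was at 0.777, 0.898 and 2.89 CPM and was not called. The calcium-activated chloride channels ANO1 and ANO2 had CIC::DUX4 means of 0.996 and 0.739 CPM, and HTR3B, a serotonin receptor subunit, 1.37; these 3 were not called either.

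Of 16 secreted and matrix proteins, 15 were tested and 7 were called higher with CIC::NUTM1. Of the 7 called, IGF1, SLPI and IGFL2 passed the filter on low counts only through the CIC::DUX4 libraries. In all, 7 of the 16 had 0 reads with empty vector. BPI, a neutrophil protein that binds bacterial lipopolysaccharide, had 0 reads with empty vector, 3.68, 1.74 and 4.79 CPM with CIC::NUTM1 and 11, 7.59 and 10 with CIC::DUX4, so that CIC::NUTM1 was at least 26.7-fold and CIC::DUX4 at least 74.8-fold higher. IGF1, the insulin-like growth factor, also at 0 with empty vector, was at 0.642, 0.529 and 0.353 CPM and at 2.66, 2.14 and 1.59 CPM. TAFA5, a small chemokine-like protein, had 1.46, 1.25 and 1.51 CPM and 4.09, 2.33 and 2.65 CPM. All 3 CIC::NUTM1 libraries lay above the empty vector libraries for each of these genes. SLPI, an inhibitor of leukocyte proteases, and IGFL2, an IGF-like peptide, were at 0 with empty vector and were at 15.3% and 12.7% of their CIC::DUX4 mean with CIC::NUTM1. FBN3, a fibrillin of the extracellular matrix, had means of 0.875, 3.97 and 8.34 CPM, and OLFML1 0.156, 0.787 and 2.59. The chemokine CCL5 had 0 reads with empty vector, 0.117, 0.151 and 0 CPM with CIC::NUTM1 and 1.58, 0.973 and 0.825 with CIC::DUX4, and was not called. OVGP1, an oviduct glycoprotein, and LGALS1, a galactoside-binding lectin, were present without a fusion (2.69 and 1.86 CPM) and were not called, at 4.45 and 2.42 CPM with CIC::NUTM1 against 9.31 and 8.38 with CIC::DUX4.

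Enzymes with a known reaction were 8, with 7 tested and 3 called higher. Of the 3, SULT1E1 passed the filter on low counts only through the CIC::DUX4 libraries. DIO2, the deiodinase that converts thyroxine to its active form, read 0.347, 0.297 and 0.0401 CPM with empty vector, 7.24, 5.89 and 9.23 with CIC::NUTM1 and 23.4, 16.1 and 16.9 with CIC::DUX4. The CIC::NUTM1 libraries lay above the empty vector libraries, with a log2 fold change of 5.06 ± 0.35 (SE) for CIC::NUTM1 (edgeR adjusted p = 2.99e-10). CYB5R2, a cytochrome b5 reductase, had means of 0.0634, 0.700 and 2.17 CPM, and SULT1E1, the oestrogen sulfotransferase, of 0, 0.385 and 1.15; both carry an octamer, as DIO2 does. TKTL1, a transketolase-like protein, was different. It read 0.116, 0.446 and 0.922 CPM with empty vector, 0.526, 0.416 and 0 with CIC::NUTM1 and 4.05, 4.62 and 2.18 with CIC::DUX4, so that the empty vector and CIC::NUTM1 libraries overlapped and only the CIC::DUX4 libraries were high. Its log2 fold change with CIC::NUTM1 was -0.66 ± 0.72 (SE). MGAM, an intestinal maltase-glucoamylase, and the metalloprotease ADAM12 had CIC::NUTM1 means of 0.619 and 0.653 CPM against 2.21 and 1.97 with CIC::DUX4 and were not called.

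Cytoskeletal and adhesion proteins were 6, with 5 tested and 2 called higher. ITGA11, a collagen-binding integrin subunit, was at 0.231, 0.565 and 0.722 CPM, then 3.44, 2.00 and 3.73, and 12, 8.12 and 6.30. PARVG, an actin-binding parvin of blood cells, had means of 0.0495, 1.64 and 6.06 CPM. SHROOM4, which organises actin, had the pattern of TKTL1: 0.520, 0.505 and 0.842 CPM with empty vector, 0.409, 0.642 and 0.656 with CIC::NUTM1 and 4.21, 1.95 and 3.00 with CIC::DUX4. Both control and CIC::NUTM1 libraries were low, and their log2 difference was -0.07 ± 0.46 (SE). ESAM, an adhesion molecule of endothelial tight junctions, was at 1.00, 1.19 and 2.48 CPM on average and was not called.

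The 4 histone genes were H2BC11, H4C14, H4C8 and H2BC17. Replication-dependent histone messages largely lack a polyA tail, and their genes are near-identical copies, so that counts in this kind of library are uncertain. H2BC11 was at 3.12, 2.64 and 2.52 CPM with empty vector, 3.21, 2.57 and 3.94 with CIC::NUTM1 and 10.3, 6.76 and 7.78 with CIC::DUX4. The first 2 groups overlapped and the third stood above them. H2BC17 was called higher with CIC::NUTM1 (log2 1.97 ± 0.67 SE, edgeR adjusted p = 0.0479), but lost the call under several alternatives and without each of 5 single libraries; without empty vector replicate 2 its adjusted p was 0.177 and without CIC::NUTM1 replicate 3 it was 0.0784. With the replicate number as a block it was 0.0555. H2BC17 passed the filter on low counts only through the CIC::DUX4 libraries.

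Among genes that fit no such role, ASMTL (ENSG00000169093; chrX:1403139-1453762, minus strand), related to an enzyme of melatonin synthesis and lying in the region shared by the X and Y chromosomes, had the most reads. It was expressed without a fusion, at 35.2, 30.5 and 37.8 CPM, and rose to 105, 65.4 and 86.9 CPM with CIC::NUTM1 and stood at 260, 189 and 205 with CIC::DUX4. Its reads could be split between the X and Y copies. MSLNL, a mesothelin-like gene, had 1 read in the 3 empty vector libraries together, 2.98, 2.12 and 2.27 CPM with CIC::NUTM1 and 15, 11.9 and 14.2 CPM with CIC::DUX4, a ratio of 5.58 between the fusions. EMP1, a tetraspan membrane protein of epithelia, was at 1.68, 1.93 and 0.321 CPM, then 3.44, 3.78 and 4.09, and 17.8, 15.3 and 14.8. Its CIC::DUX4 mean was 4.23 times its CIC::NUTM1 mean. MYEOV, a gene first described in myeloma, had means of 0.612, 2.96 and 11.1 CPM. ADPRHL1, an ADP-ribosylhydrolase-like protein of heart muscle, had means of 2.06, 6.00 and 12.3. All 5 were called higher with CIC::NUTM1.

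Noncoding RNAs were 45 of the set, of which 32 were tested and 11 called higher. Of the 11 called, LINC02192, LINC02747, ENSG00000231358, USP7-AS1 and GPC5-AS1 passed the filter on low counts only through the CIC::DUX4 libraries. Of the 45, 11 had 0 reads with empty vector. In GENCODE 29, 66.1% of the tested genes of the set were protein-coding (84 of 127), against 78.7% of all genes tested. ENSG00000274021 (chr12:89351015-89353271, plus strand) is an antisense RNA that lies within DUSP6, a phosphatase of ERK and a CIC target, on the other strand. It had 0 reads with empty vector, 4.38, 1.70 and 3.78 CPM with CIC::NUTM1 and 64.4, 42.2 and 45.3 CPM with CIC::DUX4. DUSP6 itself read 70.1, 37.4 and 60.5 CPM with CIC::NUTM1 and 36.8, 27.7 and 29.5 with CIC::DUX4, from 0.658 ± 0.562 with empty vector. The DUSP6 difference was not called (log2 -0.88 ± 0.30 SE, edgeR adjusted p = 0.177), while the antisense RNA had a CIC::DUX4 mean 15.4 times its CIC::NUTM1 mean.

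SENCR, an RNA of vascular cells antisense to the ETS factor gene FLI1, read 0.463, 0.0297 and 0 CPM with empty vector, 3.91, 1.06 and 1.46 with CIC::NUTM1 and 10.7, 7.63 and 6.36 with CIC::DUX4. FLI1 was also higher with CIC::DUX4 than with CIC::NUTM1, at 25.2 ± 3.98 against 14.6 ± 0.461 CPM (log2 0.74 ± 0.14 SE, edgeR adjusted p = 0.000786). ARHGEF26-AS1 had means of 0.696, 2.80 and 9.94 CPM, while its partner ARHGEF26 was at 40.4, 75.2 and 64.0 and did not pass the test between the fusions (adjusted p = 0.0697, edgeR). EIF2AK3-DT had means of 0.701, 1.48 and 3.48 CPM, while EIF2AK3, a kinase of the unfolded protein response, was lower with CIC::DUX4 than with CIC::NUTM1 (24.3 ± 4.98 against 31.3 ± 2.00 CPM, log2 -0.41 ± 0.12 SE, edgeR adjusted p = 0.0445). SENCR lost its call for CIC::NUTM1 against empty vector without empty vector replicate 2 (edgeR adjusted p = 0.0558).

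Whether counting used the strand of the reads is not given in the sources used here, so reads of an antisense RNA and its partner may not be separable. Of the 155 genes, 57 overlap a protein-coding gene in GENCODE 29, 44 of them on the opposite strand. Of 73 such partners outside the set, 47 were tested between the fusions. PNKD, FLI1 and MON1B (6.38% of the 47) were called higher with CIC::DUX4, where 1.64% of all genes were, and EIF2AK3 (2.13%) was called lower, where 4.97% of all genes were. PNKD overlaps TMBIM1, which is therefore uncertain. TMBIM1, a membrane protein with a BAX inhibitor motif, was at 7.34, 8.88 and 8.34 CPM with empty vector, 11.7, 9.56 and 9.54 with CIC::NUTM1 and 29.8, 25 and 26.3 with CIC::DUX4, and was not called for CIC::NUTM1 (edgeR adjusted p = 0.101).

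**Figure D4:**
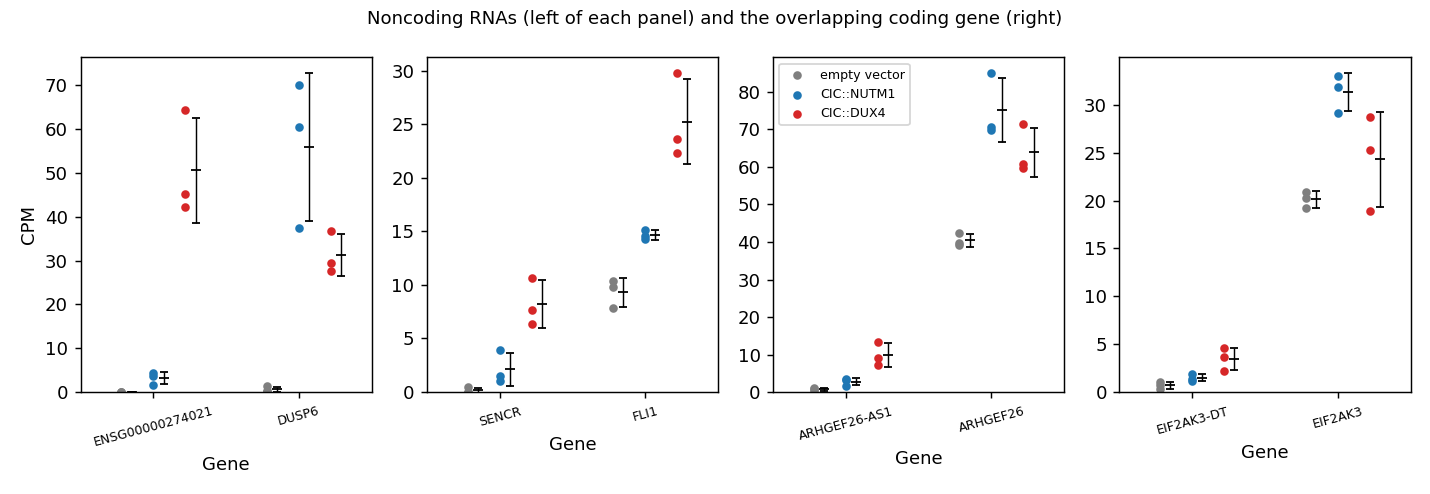
CPM in each library for 4 noncoding RNAs of the set (left of each panel) and the coding gene that overlaps each on the other strand (right), points being libraries and bars the mean and SD of 3. ENSG00000274021 is highest with CIC::DUX4 at 42.2 to 64.4 CPM, while DUSP6 is at 27.7 to 36.8 CPM there and at 37.4 to 70.1 with CIC::NUTM1.

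The RNAs ENSG00000250385 (0.0920, 3.84 and 12.9 CPM on average), LINC01206 (0, 1.17 and 4.39) and ENSG00000261924 (0.0495, 2.13 and 4.64) were other noncoding RNAs called higher with CIC::NUTM1. CRIM1-DT, at 1.79, 1.07 and 2.17 CPM, then 2.04, 1.70 and 1.77, and 7.75, 6.32 and 7.66, was not; its empty vector and CIC::NUTM1 libraries overlapped (log2 0.19 ± 0.29 SE). SNHG14, a long transcript of the imprinted Prader-Willi region, rests on 1 library. It read 11.5 CPM in CIC::DUX4 replicate 1 and 0.146 and 0.118 in the others, and it left the set when that library was left out. It was not tested.

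Genes well counted but without a detected response to CIC::NUTM1 were 6, taking those whose CIC::DUX4 libraries averaged 100 counts or more: TMBIM1, CACNA1C, OVGP1, LGALS1, H2BC11 and CRIM1-DT. All 6 had reads in every empty vector library. Their empty vector means were 1.68 to 8.19 CPM, and their CIC::NUTM1 log2 fold changes 0.19 to 0.77. A missed threshold does not show that they failed to respond.

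At the edge of the criteria, PTCHD4, RPL26L1-AS1 and TPRG1 were the genes just inside, with CIC::DUX4 means 2.005, 2.023 and 2.036 times the higher of the other means. ENSG00000233406, CSMD3 and POMZP3 were just outside at 1.998, 1.981 and 1.980.

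None of 20 known CIC targets was in the set. The set holds 155 of 62700 genes, so at that share a list of 20 would hold few or none. VGF, a secreted neuropeptide precursor, met the numeric criteria but was left aside by symbol. Symbols beginning SPRY were also barred, so SPRY2 and SPRY4 of the list could not be in the set. Of the 19 that were tested between the fusions, edgeR called 0 higher with CIC::DUX4 and 7 lower, ETV1, SPRY2, CCND1, FOSL1, PTPN9, HMGA2 and BHLHE41, where 1.64% of all genes were higher and 4.97% lower, at a median log2 fold change of -0.47 over the list against 0.0053 over all genes. At an unadjusted p under 0.05, 1 was higher and 12 were lower, and DESeq2 called VGF higher. The shares of all genes at that cut and with DESeq2 are not given here. VGF was at 634.7 CPM with CIC::NUTM1 and 1443 with CIC::DUX4 on average (log2 1.14 ± 0.27 SE, edgeR adjusted p = 0.0625). ETV4 was at 202.5 CPM with CIC::NUTM1 and 195.0 with CIC::DUX4, and ETV5 at 265.4 and 249.6; neither was called. The count of lower genes was 11 without CIC::NUTM1 replicate 2 or without CIC::DUX4 replicate 1, and 5 without any 1 of the other 4 libraries; VGF was called higher without CIC::NUTM1 replicate 1. With the replicate number as a block, VGF was called higher (edgeR adjusted p = 0.0156) and 11 genes of the list were called lower. A second list held 20 genes that full-length DUX4 switches on through its homeodomains in the early embryo (ZSCAN4, LEUTX, TRIM43 and others). It also had 0 genes in the set, where 155 of all 62700 genes were. Of the 20, only RFPL2, RFPL4A, CCNA1 and ZNF296 passed the filter on low counts. RFPL4A had means of 0.0822 CPM with empty vector, 1.88 with CIC::NUTM1 and 1.95 with CIC::DUX4. SLC34A2 and KDM4E had 0 reads with empty vector, 2 and 3 with CIC::NUTM1 and 16 and 13 with CIC::DUX4. ZSCAN4, LEUTX, MBD3L2 and KHDC1L had 0 reads in all 9 libraries.

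By position, 9 pairs of genes of the set lay with a gap of at most 500000 bases between them. Among them were FBN3 and NFILZ on chromosome 19, MYEOV and LINC02747 on chromosome 11, and KIAA1755 and BPI on chromosome 20. The same count was not made for other genes, so it does not show that the set is clustered. Of 124 genes of the set in the RefSeq table, 0 had another gene of the set as their nearest gene, against 0.198% of all genes.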

How the data were processed

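PolyA RNA of 9 libraries was sequenced. Raw counts per Ensembl gene were deposited by the authors, who list STAR 2.7.10b, R 4.2.2, edgeR 3.40.2 and GRCh38 in the submitters' processing notes; the counting program, annotation and use of strand are not given in the sources used here. The authors also deposited log2 CPM; the values of the 104 genes of the set found there matched a log2 CPM recomputed by TMM (prior count 2) to within 1.02e-14. Columns were matched to samples by library name.

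CPM used library totals. The test was that of edgeR 4.0.16, run in R 4.3.3 (filterByExpr, TMM, robust quasi-likelihood fit, 1 mean per group, all 9 libraries, Benjamini-Hochberg adjustment over 17576 genes, threshold 0.05). SEs derive from the quasi-likelihood F statistic. A group at 0 was set to 3 counts per library (0.128 CPM in empty vector) for lower bounds, which cover counting error only, as do the Wilson intervals (95%). Symbols matched 62622 of 62700 IDs; positions are from GENCODE 29 and promoters from RefSeq. Roles were assigned by hand. Tested on simulated data, edgeR found 98.5% of 200 genes changed among 17153, with 4.37% of its calls false. The changed genes were drawn at random from all genes tested, with the same spread and the same size of change for each. These shares therefore do not show how well changes are found in low-count genes, such as most of the set.

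The members and lists were chosen with earlier results of these data known. Genes named are NFILZ and MSLNL, the 12 with the highest CIC::DUX4 ratio among those averaging 100 counts or more there, the 10 with the highest CIC::DUX4 level, the 6 that rose most with CIC::NUTM1, up to 4 per role, those at the threshold and those of the lists; others named were chosen after their values were seen. Alternatives were other scalings, filters and tools (DESeq2 1.42.0, limma 3.58.1), a fit without the remaining group, a replicate block, leaving out single libraries, other criteria for the set and a stricter AP-1 motif, the last added after seeing the data. CIC, NUTM1 and DUX4 were not analysed here. The values of 1 gene of the set are not reported here.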

Additional observations from a re-analysis of the deposited data

How the results depend on the processing

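The size of the set followed its criteria: 300 genes at 1.5-fold, 90 at 3-fold, 100 at a minimum of 1 CPM, 146 with TMM-scaled CPM, and 165 to 284 with 1 library left out. Of the set, 51 genes were called higher with CIC::NUTM1 than with empty vector; the number was 44 to 55 with 1 library left out, 32 of 59 tested in a fit of only the groups compared and 7 of 18 tested with at least 10 counts in every library, where fewer genes were tested. No alternative called a gene of the set lower. Over all genes, 673 were lower, against 1138 with library totals, 1124 with upper quartile factors and 278 to 977 with 1 library left out; the cause was not tested. For the CIC target list between the fusions, DESeq2 called 1 gene higher, and leaving out 1 library gave 0 to 1 higher and 5 to 11 lower.

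The replicate number as a block left 49 genes of the set higher, losing SLN (edgeR adjusted p = 0.0566) and H2BC17, and gave 1 higher and 11 lower on the CIC list. It changed none of the calls given for DUSP6, FLI1, PNKD, MON1B, EIF2AK3 and ARHGEF26. Replicates were transfected on separate days, but the labels do not say that equal numbers mark the same day. Same-numbered libraries deviated from their group means with correlations of -0.157 to 0.227 over 11897 genes, above 0.1 in 4 of 9 pairs, so pairing was not established, and 1 of 3 empty vector libraries correlated best with its own number in CIC::NUTM1.

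Of 594 values for 42 named genes under the alternatives, 570 kept direction and side of the threshold, 11 lost and 5 gained a call, and 8 changed sign, all in genes not called and all with 1 library left out, where log2 fold changes ran from -0.087 to 0.45 for CRIM1-DT, -0.23 to 0.22 for SHROOM4, -0.12 to 0.47 for ESAM, -1.12 to 0.045 for TKTL1, -0.12 to 0.79 for H4C14, -0.21 to 1.05 for SLC8A2 and -0.31 to 0.25 for TPRG1. PEA3 matches were in 0% of windows of genes averaging 100 counts or more, and AP-1 as TGACTCA or TGAGTCA only in 8.47% of windows of the set, against 4.09% of all. At 16970771 to 33655445 counts per library, 28 genes of the set did not pass the filter on low counts. SNHG14 was among them, with its reads almost wholly in 1 library.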
